A study of Mus musculus with 9 samples.

Results

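The renin-angiotensin genes of the mouse brain were examined as 9 members chosen by name among the 38621 genes of the deposited table, namely Agt, Ren1, Atp6ap2, Ace, Enpep, Lnpep, Agtr1a, Agtr2, and Mas1. Agt was chosen because its level was lower after intracerebral hemorrhage (ICH) and higher with febuxostat, so its values are given as a description without a test, and the other 8 genes were added as the enzymes and receptors of its pathway. Brains of 9 male C57BL/6 mice were sampled, with 3 mice per group (sham, ICH, and feb). Sham mice were injected with saline according to the methods of the study and are labeled untreated, ICH mice received 30 μl of their own blood in the brain, and feb mice were given febuxostat, an inhibitor of xanthine oxidase, by gavage (50 mg/kg a day over the 5 preceding days) and then the same blood injection. The injected blood is a model of the hematoma without a ruptured vessel, and no group received febuxostat without blood. The dissected brain region and the time of sampling are not given for these libraries in the sources used here.

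Angiotensinogen, the product of Agt, is the precursor of all angiotensins. Renin cleaves it to angiotensin I, angiotensin-converting enzyme trims this to angiotensin II, and angiotensin II acts on the type 1 and type 2 receptors, while shorter peptides have receptors of their own. In the brain, astrocytes are the main source of angiotensinogen mRNA, whereas the angiotensinogen of the blood comes from the liver.

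The bases that give rise to angiotensin are shown because they are the part of Agt on which the other enzymes act. Agt lies on the minus strand of chromosome 8 (124556534 to 124569706 in GRCm38) and has 5 exons in GENCODE M21. The start codon and the angiotensin codons are both in exon 2, at chr8:124564450-124564566, in the following 117 coding bases from the start codon. Capitals mark codons 30 to 39 of 482, which encode angiotensin I. The first 8 of these 10 codons encode angiotensin II.
Agt: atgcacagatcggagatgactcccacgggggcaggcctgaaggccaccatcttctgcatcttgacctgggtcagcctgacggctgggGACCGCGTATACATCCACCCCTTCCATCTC

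The 250 bases before the transcript start of Agt, chr8:124569707-124569956 on the minus strand (RefSeq, GRCm38.p6), are shown as the region next to the start of the mRNA that varied between the groups.
Agt: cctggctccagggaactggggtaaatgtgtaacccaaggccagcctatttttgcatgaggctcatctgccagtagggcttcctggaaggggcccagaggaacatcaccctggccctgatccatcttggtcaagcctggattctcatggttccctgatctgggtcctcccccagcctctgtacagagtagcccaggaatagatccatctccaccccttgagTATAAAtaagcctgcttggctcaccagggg
Capitals mark the TATA box core TATAAA, which begins 30 bases before the start. It was found on either strand in 12.4% of the 32851 upstream windows of the same length. The letters AGAACA, a half-site of the glucocorticoid receptor, were searched on both strands, had 0 matches in this window, and occur in 16.1% of all windows. Bases beyond these 250 were not searched, so the count of 0 cannot show whether Agt has such a site elsewhere.

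Expression was given by the authors as RPKM, the reads per kilobase of exon length, scaled to the total of reads counted on genes. The libraries held between 23065757 and 29538009 reads on genes, as recovered from the RPKM values. Neuronal genes were abundant in every library, with a summed RPKM of Snap25, Syt1, Rbfox3, and Stmn2 between 369 and 447. Several libraries stood apart in genes of regions or cell types. ICH mouse 2 had the highest sum of 7 telencephalon genes (147, against 25.8 to 85.5 in the other mice), the lowest sum of 8 thalamus and midbrain genes (33.5, against 82.4 to 228), and the highest RPKM of Gfap (573, against 54.5 to 160). ICH mouse 1, which had the highest Agt of its group, had the highest sum of 5 red blood cell genes (124, against 17.1 to 40.6). The sum of 6 striatal neuron genes was lowest in sham mouse 1 (38.8) and reached 295 in sham mouse 2 and 299 in ICH mouse 3. Feb mice 1 and 3 had the highest mean log2(RPKM + 0.1) of 10 glucocorticoid-responsive genes (4.04 and 4.33, against 2.55 to 3.28 in the other mice). In whole tissue, fewer cells of a type and less RNA per cell cannot be told apart.

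Across the 9 mice, levels in RPKM ranged over more than 3 orders of magnitude. Agt was highest on average (31.7), followed by Atp6ap2 (17.2), Lnpep (12), Ace (5.31), Mas1 (0.919), Enpep (0.60), Agtr1a (0.150), Agtr2 (0.108), and Ren1 (0.0205). The range of Agt over the mice (9.37 to 64.1) overlapped that of Atp6ap2 (13.1 to 20.5). Every mouse had more Atp6ap2 than any mouse had Lnpep (10.9 to 12.8), more Lnpep than Ace (2.88 to 9.24), and more Ace than Mas1 (0.339 to 1.72). The ranges of neighbors overlapped from Mas1 down to Ren1, so their order was not resolved by the ranges, although within each of the 9 mice Enpep was above Agtr1a and Agtr2 was above Ren1.

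**Figure D1:**
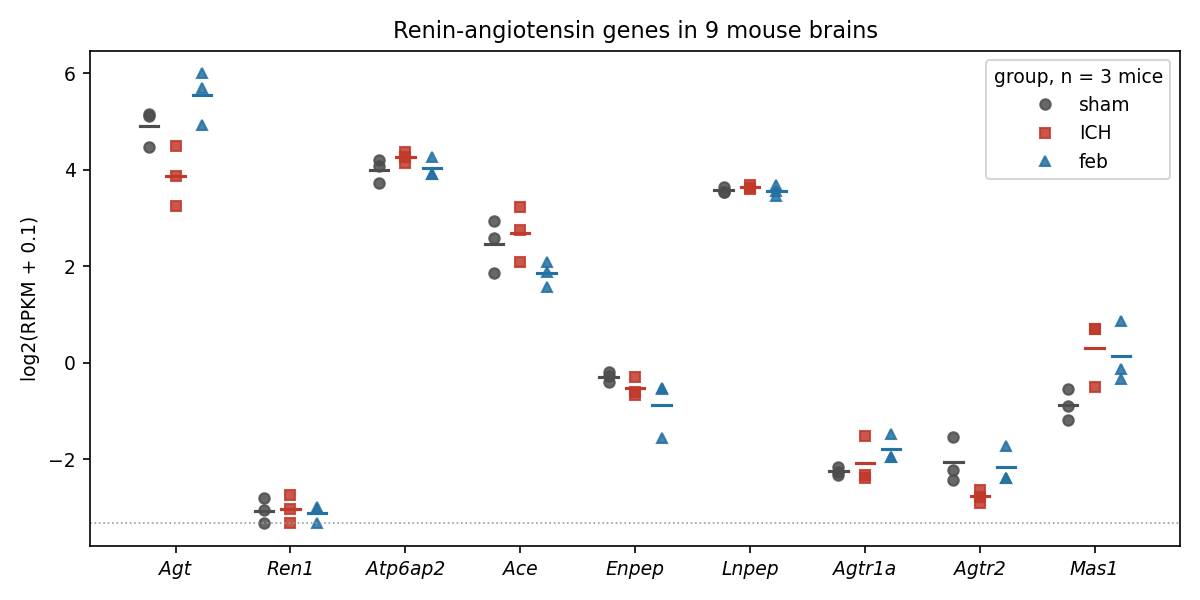
Level of each of the 9 renin-angiotensin genes, as log2(RPKM + 0.1), in each mouse of the sham, ICH, and feb groups (points, n = 3 mice per group), with short lines at group means and a dotted line at the value of a gene without reads. The feb mice lie above the ICH mice in Agt, the ICH and feb mice lie above the sham mice in Mas1, and Ren1 lies at or near the dotted line in every mouse.

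The RPKM of Agt was 34.9, 22.2, 35.4 (sham mice 1 to 3), 22.5, 9.37, 14.7 (ICH mice 1 to 3), and 64.1, 30.4, 52.2 (feb mice 1 to 3). Every feb mouse was above every ICH mouse, whereas the highest ICH mouse overlapped the lowest sham mouse, and feb mouse 2 lay within the range of the sham mice. Between feb and ICH, 17.2% of all genes tested had no overlap in either direction. The Agt values rested on 466 to 3209 reads per mouse. On the scale of log2(RPKM + 0.1), Agt was lower by 2.06-fold in the ICH group than in the sham group (log2 difference -1.04, standard error 0.37) and 3.19-fold higher in the feb group than in the ICH group (1.67, standard error 0.37). The difference between the feb and sham groups was 0.63 on the log2 scale (standard error 0.37). Without feb mice 1 and 3, an alternative chosen after the data were seen that leaves 1 feb mouse, these differences were 1.05 from the ICH group and 0.01 from the sham group.

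Agt mRNA in the brain comes mainly from astrocytes, so astrocyte genes were set beside it. The list held 12 genes, and all were tested by limma among 29025 genes, those reaching 0.1 RPKM in 3 or more mice. A gene was called, by the criteria of the study, when its fold change exceeded 2 and its unadjusted p-value was below 0.05. Of the 12 astrocyte genes, 0 were called in any of the 3 contrasts, while 2 had an unadjusted p-value under 0.05 in each. Among all genes tested, 2.53% were called between ICH and sham, 2.43% between feb and ICH, and 2.20% between feb and sham. In the same contrasts, 12.3%, 11.1%, and 8.54% had an unadjusted p-value under 0.05. The 2 of 12 lay above these shares, but on too few genes to read as a result about the list. The median log2 fold change of the 12 genes was -0.18 between ICH and sham, where the median of all genes tested was 0.08, and -0.08 between feb and ICH, where it was -0.01. Between ICH and sham, 4 of the 12 were above 0 and 8 below, and between feb and ICH 5 were above and 7 below. In limma, Slc1a2 (log2 fold change 0.27) and Ntsr2 (-0.83) were those under 0.05 between ICH and sham. Between feb and ICH they were Fgfr3 (0.54) and Aldh1l1 (-0.41). Ntsr2, Fgfr3, and Aldh1l1 were named after their values were seen, and Slc1a2 and Gfap as the 2 most abundant of the list. Slc1a2, the main glutamate transporter of astrocytes, averaged 173 ± 20.3 RPKM in sham, 207 ± 8.35 after ICH, and 184 ± 15.1 with febuxostat (SD, n = 3 each). Gfap, the gene of an astrocyte filament protein, averaged 96.0 ± 43.2 RPKM in sham, 255 ± 278 after ICH, and 117 ± 55.4 with febuxostat (SD, n = 3 each), and ICH mouse 2 sets the spread after ICH. The summed RPKM of the list was 604 to 751 in sham, 643 to 1105 in ICH, and 560 to 717 in feb mice, and no gene of the list was at 0.

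A shorter list held 3 genes known to be stronger in astrocytes outside the telencephalon, Slc6a11, Slc6a9, and Itih3. Within their groups, the ICH and feb mice had the same order in the mean of this list as in Agt. The mean log2(RPKM + 0.1) of these genes was 4.30, 3.94, 4.28 (sham mice 1 to 3), 4.09, 3.40, 3.66 (ICH mice 1 to 3), and 4.42, 4.02, 4.08 (feb mice 1 to 3). The lowest Agt of each group stood in the mouse with the lowest mean of this list, although sham mice 1 and 3, which were nearly level in both, stood in opposite order. In the feb group only Itih3 of the 3 genes had the order of Agt, at 50.4, 14.9, 42.5 RPKM (feb mice 1 to 3). Feb mouse 2 was highest of its group in Slc6a11 (36.6, 38.3, 26.3) and Slc6a9 (5.15, 7.27, 4.21). The log2 fold change of Slc6a9 between feb and ICH was 0.05. The GABA transporter gene Slc6a11 averaged 41.0 ± 5.46 RPKM in sham, 25.1 ± 11 after ICH, and 33.7 ± 6.51 with febuxostat (SD, n = 3 each). Slc6a11 was lower in every ICH mouse than in any sham mouse, where 19.4% of all genes had no overlap in either direction, but was called in no contrast (adjusted p = 0.392 in limma between ICH and sham). Itih3, whose product stabilizes the extracellular matrix, averaged 18.7 ± 2.38 RPKM in sham, 19.3 ± 7.36 after ICH, and 36.0 ± 18.7 with febuxostat (SD, n = 3 each). Of the 3 genes, 0 were called in limma. An unadjusted p-value under 0.05 was found for 2 of them between ICH and sham, for 0 between feb and ICH, and for 1 between feb and sham. Of all genes tested, 12.3%, 11.1%, and 8.54% had such a value. The list is short and its part in the values of Agt was not tested.

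Genes of the thalamus and midbrain followed the difference between ICH and sham in part. All 8 genes of this list had negative log2 fold changes between ICH and sham (median -1.04). Of them, 2 were called lower, against 2.53% of all genes tested. All 8 were positive between feb and ICH (median 0.74). There 0 were called and 0 had an unadjusted p-value under 0.05 in limma, against 2.43% and 11.1% of all genes. Slc17a6, a vesicular glutamate transporter, averaged 41.5 ± 11.1 RPKM in sham, 21.7 ± 13.0 after ICH, and 33.7 ± 14.0 with febuxostat (SD, n = 3 each). Prkcd, a protein kinase C gene strong in the thalamus, averaged 47.0 ± 22.0 RPKM in sham, 25.8 ± 22.2 after ICH, and 48.2 ± 18.9 with febuxostat (SD, n = 3 each). The mice did not keep the order of Agt here. ICH mouse 3 had a high mean log2 value of the list (3.98) with a low Agt, and feb mouse 3 had a low mean (2.90) with a high Agt.

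Glucocorticoid-responsive genes were highest in the feb mice that also had the most Agt. The mean log2(RPKM + 0.1) of the 10 genes was 2.75, 2.55, 2.82 (sham mice 1 to 3), 3.28, 2.98, 3.06 (ICH mice 1 to 3), and 4.04, 3.03, 4.33 (feb mice 1 to 3). Feb mouse 2, with the lowest Agt of its group, lay within the range of the ICH mice. Unlike Agt, the list was higher in every ICH mouse than in any sham mouse. In limma, 1 gene was called higher between ICH and sham, 1 between feb and ICH, and 4 between feb and sham. The shares of all genes called were 2.53%, 2.43%, and 2.20%. Like the other lists, this one was chosen with earlier results of these data known, so its calls are a description. Plin4, a lipid droplet gene, and Fkbp5, a co-chaperone gene of the glucocorticoid receptor, were named after their values were seen because they set feb mice 1 and 3 apart. Plin4 was 15.2, 1.87, and 17.6 RPKM in feb mice 1 to 3 and Fkbp5 was 16.0, 4.44, and 21.3. The metallothionein genes Mt1 and Mt2, whose products bind zinc and copper, were the most abundant of the list and had another pattern. For ICH against sham their log2 fold change was -0.12 and -0.28, and they had no overlap between the feb mice and the mice of either other group, as had 17.2% of all genes between feb and ICH and 12.7% between feb and sham. Mt2 averaged 44.2 ± 6.13 RPKM in sham, 36.5 ± 6.54 after ICH, and 67.9 ± 11.4 with febuxostat (SD, n = 3 each), and its log2 fold change for feb against ICH was 0.89 (standard error 0.17; limma adjusted p = 0.208), short of a fold change of 2. Mt1 had 18.1 ± 1.84, 16.6 ± 1.23, and 30.1 ± 5.75 (SD, n = 3 each). The part of glucocorticoid signaling in the Agt values was not tested.

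**Figure D2:**
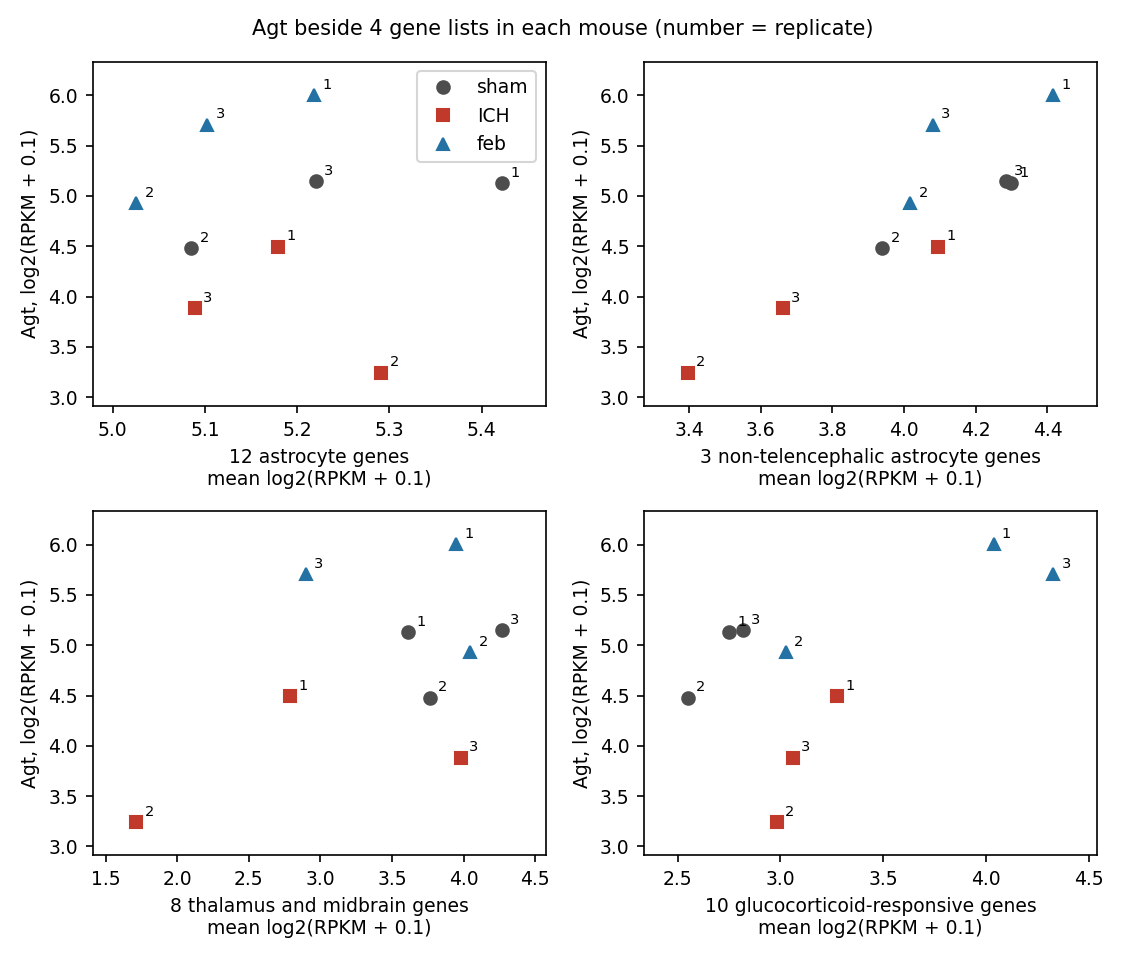
Agt in each mouse, as log2(RPKM + 0.1), against the mean log2(RPKM + 0.1) of 12 astrocyte genes, 3 non-telencephalic astrocyte genes, 8 thalamus and midbrain genes, and 10 glucocorticoid-responsive genes, with 9 mice in each panel and replicate numbers beside the points. ICH mouse 2 is lowest in Agt, in the non-telencephalic astrocyte genes, and in the thalamus and midbrain genes, and feb mice 1 and 3 stand apart in the glucocorticoid-responsive genes.

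Agt was compared with 12050 genes that reached 1 RPKM in every mouse, leaving out predicted genes with Gm or Rik names. The 8 whose log2 values followed Agt most closely were Snhg8, Pgm2, Rasgrf1, Ctsf, Frmpd1, Arih2, Rnf8, and Xpa. They were picked for their likeness, measured as Pearson's r over the 9 mice, which was between 0.953 and 0.984, and 51 genes had a value over 0.9. Spearman's rho was at least 0.883 for each. When the 2 mice most distant from the Agt median were left out, r was 0.905 to 0.962. These 8 genes varied less than Agt, since the highest and lowest mouse were apart by 2.76 on the log2 scale in Agt and by 0.35 to 1.46 in these genes. Frmpd1 varied most, at 4.83, 3.78, 4.32 (sham mice 1 to 3), 3.28, 2.48, 3.15 (ICH mice 1 to 3), and 6.51, 4.26, 6.98 (feb mice 1 to 3). The genes most opposed to Agt were Mtmr9, Ncan, and Hist1h4a, with r between -0.963 and -0.950. Ncan, which encodes the proteoglycan neurocan, was 23.3, 36.1, 25.9 (sham mice 1 to 3), 34.9, 46.1, 34.0 (ICH mice 1 to 3), and 19.6, 26.0, 21.7 (feb mice 1 to 3). The 9 mice share the group differences that also set Agt, so no p-value is given for these values.

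Of the 8 members other than Agt, 7 passed the filter on low values, and Ren1 did not. Agtr2 is among the 7 but passed only through sham and feb mice. Between ICH and sham, 1 of the 7 was called (Mas1, higher), against 2.53% of all genes tested. Between feb and ICH, 0 of the 7 were called in limma, against 2.43% of all genes, and 1 (Ace) had an unadjusted p-value under 0.05, against 11.1%. Between feb and sham, 1 of the 7 was called (Mas1, higher), against 2.20%. No member had an adjusted p-value under 0.05 in any contrast, as did 0.0241%, 0.00689%, and 0.00345% of all genes in these 3 contrasts. By limma with voom on the recovered reads, 2 of the 7 had an unadjusted p-value under 0.05 in each contrast, against 13.7%, 11.1%, and 8.92% of all genes, and Agtr2 is 1 of the 2 in both contrasts with the ICH group. The same fit called 3.20%, 2.77%, and 2.77% of all genes, and 0% passed adjustment, members included. With 3 mice against 3, an exact permutation test of a single gene cannot go below 0.1 (two-sided).

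**Figure D3:**
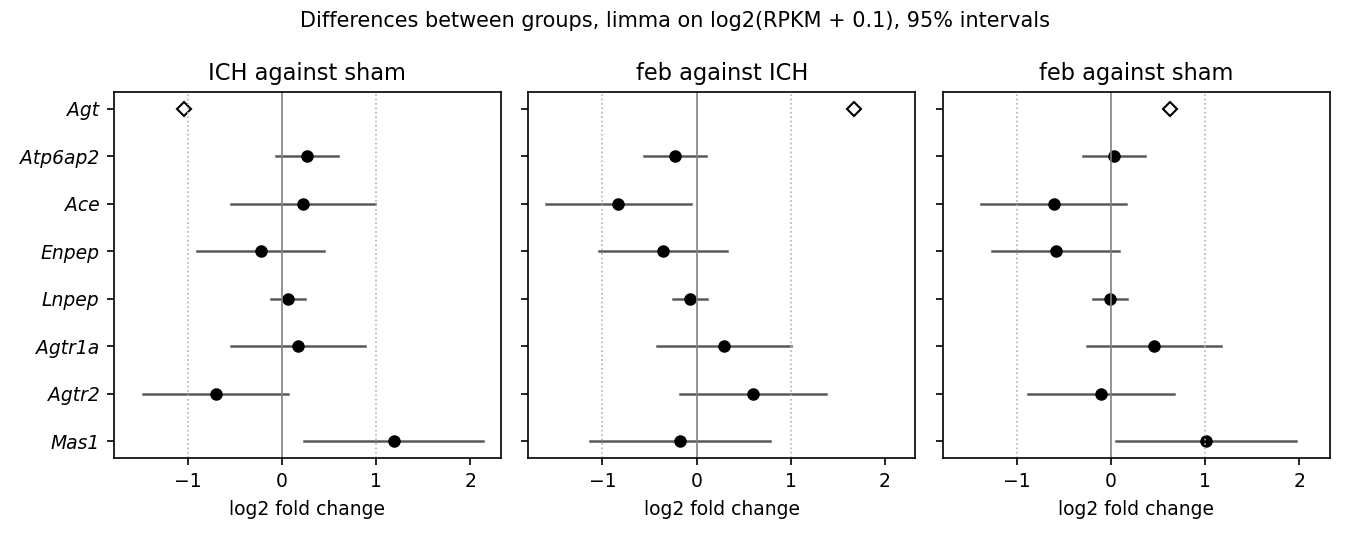
Log2 fold change of 8 renin-angiotensin genes from limma on log2(RPKM + 0.1) in the 3 contrasts, with 95% intervals as bars and dotted lines at a fold change of 2. Agt, chosen for its values, is an open diamond without an interval, and Agtr2 passed the filter only through sham and feb mice. Mas1 lies to the right of the dotted line in both contrasts with the sham group, and Lnpep lies at 0 with the shortest interval in all 3.

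Renin and its receptor came first among the processing genes. Ren1, the renin gene of C57BL/6 mice (chromosome 1, 133350510 to 133360325), had 1, 0, 2 reads (sham mice 1 to 3), 2, 1, 0 (ICH mice 1 to 3), and 1, 0, 1 (feb mice 1 to 3). No group stood out, and no fold change is given. In the 3 mice without a read, a count of 0 allows up to 3 reads, an RPKM between 0.0691 and 0.0717, a limit that covers counting error only. Atp6ap2 (chromosome X, 12587801 to 12617049) encodes the prorenin receptor, which is also an accessory subunit of the vacuolar proton pump. Its RPKM was 13.1, 18.3, 16.8 (sham mice 1 to 3), 17.6, 19.3, 20.5 (ICH mice 1 to 3), and 19.1, 15.0, 15.0 (feb mice 1 to 3). All groups overlapped. The log2 fold change was 0.26 between ICH and sham (95% interval -0.07 to 0.59) and -0.23 between feb and ICH (-0.56 to 0.10), so its interval stayed inside a fold change of 2 in both.

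Among the enzymes that trim angiotensins, Ace was lower in the feb group than in the ICH group without meeting both criteria. Ace (chromosome 11, 105967945 to 105989964) encodes angiotensin-converting enzyme, which forms angiotensin II. Its RPKM was 7.61, 3.55, 5.89 (sham mice 1 to 3), 6.64, 9.24, 4.15 (ICH mice 1 to 3), and 3.61, 2.88, 4.19 (feb mice 1 to 3). The feb mice lay within or just below the lowest values of the other groups, and feb mouse 3 overlapped ICH mouse 3. The log2 fold change between feb and ICH was -0.83 (standard error 0.34, adjusted p = 0.422 in limma), a decrease of 1.78-fold that was short of 2. Leaving out each mouse in turn gave log2 fold changes of -1.13 to -0.56. Only the value of -1.13, without ICH mouse 3, met both criteria, and the outcome was unchanged in 19 of 20 alternatives. For ICH against sham the log2 fold change of Ace was 0.22 (standard error 0.34), with an adjusted p of 0.787 in limma.

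The choroid plexus, which produces cerebrospinal fluid, is known to express Ace, and its markers were lower in the same feb mice. All 8 choroid plexus genes were called lower between feb and ICH and 7 between feb and sham. The shares of all genes called were 2.43% and 2.20%. Like the other lists, this one was chosen with earlier results of these data known, so its calls are a description. Ttr, the transthyretin gene, averaged 724 ± 337 RPKM in sham, 728 ± 260 after ICH, and 50.9 ± 27.0 with febuxostat (SD, n = 3 each). Clic6, a chloride channel gene, averaged 10.2 ± 1.28 RPKM in sham, 11.9 ± 1.72 after ICH, and 5.40 ± 1.81 with febuxostat (SD, n = 3 each). The summed RPKM of the 8 genes was 365 to 1035 in sham, 458 to 967 in ICH, and 30.6 to 88.4 in feb mice, and none of them was at 0. Among the 6 sham and ICH mice, the lowest Ace in each group was in the mouse with the lowest choroid plexus mean. The feb mice did not keep this match. Their lowest Ace was in mouse 2 (2.88 RPKM, mean log2 -0.165), and their lowest choroid plexus mean was in mouse 1 (-0.339, Ace 3.61 RPKM). Gm11651 overlaps Ace on the other strand by 295 exon bases, and its RPKM was 2.17 ± 1.10 in sham, 2.93 ± 1.34 after ICH, and 1.59 ± 0.296 with febuxostat (SD, n = 3 each). The library kit keeps strand, but the strand setting of the counting is not given in the sources used here. Endothelium is also known to express Ace. Of 7 endothelial genes, 0 were called in any contrast. Between feb and ICH, 3 of the 7 had log2 fold changes above 0 and 4 below. Flt1, Pecam1, and Cdh5, named after their values were seen, had an unadjusted p-value under 0.05 in limma there, against 11.1% of all genes. Their log2 fold changes were -0.29, -0.38, and -0.45. The summed RPKM of that list was 43.5 to 52.9 in sham, 44.5 to 51.0 in ICH, and 38.8 to 45.9 in feb mice. All 6 striatal neuron genes had negative log2 fold changes between feb and ICH (median -0.54), with 0 called and 0 at an unadjusted p-value under 0.05 in limma. The part of choroid plexus, endothelium, striatal tissue, or Gm11651 in the Ace values was not tested.

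Neither aminopeptidase gene was called in any contrast. Enpep (chromosome 3, 129269175 to 129332720) encodes aminopeptidase A, which converts angiotensin II to angiotensin III and is found on pericytes. Its RPKM was 0.727, 0.772, 0.665 (sham mice 1 to 3), 0.720, 0.533, 0.560 (ICH mice 1 to 3), and 0.586, 0.598, 0.240 (feb mice 1 to 3). Every feb mouse was below every sham mouse, as in 12.7% of all genes tested for an absence of overlap in either direction, and feb mouse 3 was lowest. The log2 fold change between feb and sham was -0.59 (standard error 0.30, adjusted p = 0.620 in limma), and without feb mouse 3 it was -0.25. The mural cell list, which holds genes of pericytes and smooth muscle, had 0 of 8 genes called in limma in any contrast, but all 8 had negative log2 fold changes between feb and sham, 4 of them with an unadjusted p-value under 0.05, against 8.54% of all genes. Its summed RPKM was 55.1 to 71.4 in sham, 57.0 to 75.1 in ICH, and 40.2 to 61.8 in feb mice, and none of its genes was at 0. Rgs5, a pericyte marker, averaged 22.3 ± 0.817 RPKM in sham, 21.5 ± 1.33 after ICH, and 15.2 ± 4.10 with febuxostat (SD, n = 3 each). Vtn, the vitronectin gene, averaged 16.3 ± 2.80 RPKM in sham, 16.0 ± 1.65 after ICH, and 11.1 ± 1.96 with febuxostat (SD, n = 3 each). In each group the lowest Enpep and the lowest mean log2(RPKM + 0.1) of the mural list stood in different mice. In the feb group these were mouse 3 (mean 1.97) and mouse 1 (mean 1.86, Enpep 0.586 RPKM). The highest of both stood in the same mouse in the ICH and feb groups but not in the sham group. The part of mural cells in the Enpep values was not tested.

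Lnpep was the most even of the 9 genes. Lnpep (chromosome 17, 17527723 to 17624489) encodes the insulin-regulated aminopeptidase, the binding site of angiotensin IV. Its RPKM was 12.3, 11.6, 11.6 (sham mice 1 to 3), 12.1, 12.7, 12.2 (ICH mice 1 to 3), and 12.8, 10.9, 11.6 (feb mice 1 to 3). All 3 groups overlapped. The log2 fold change had a 95% interval of -0.12 to 0.24 for ICH against sham and of -0.25 to 0.11 for feb against ICH.

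**Figure D4:**
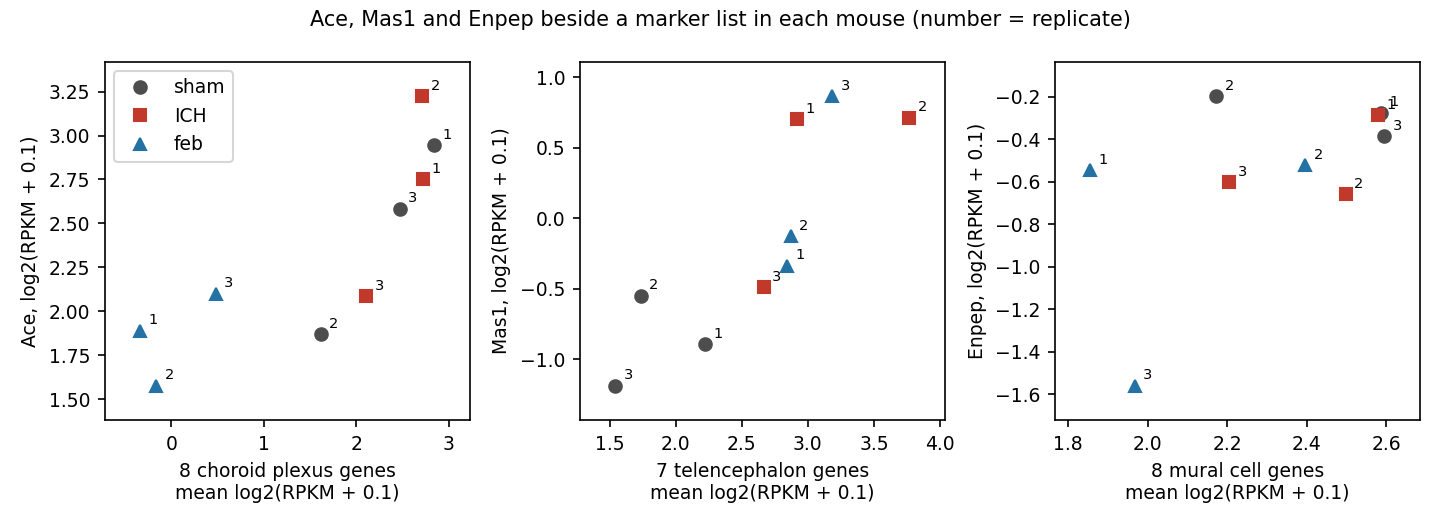
Ace, Mas1, and Enpep in each mouse, as log2(RPKM + 0.1), against the mean log2(RPKM + 0.1) of 8 choroid plexus genes, 7 telencephalon genes, and 8 mural cell genes, with replicate numbers beside the points. The feb mice stand apart at low choroid plexus values, the 3 sham mice lie lowest in both Mas1 and the telencephalon genes, and feb mouse 3 is far below the other mice in Enpep.

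Among the receptors, Mas1 was higher in both groups with hemorrhage than in the sham group. Mas1 (chromosome 17, 12841079 to 12868143) encodes the receptor of angiotensin-(1-7), and in the brain it is best known from the hippocampus and cortex. Its RPKM was 0.439, 0.584, 0.339 (sham mice 1 to 3), 1.53, 1.54, 0.612 (ICH mice 1 to 3), and 0.692, 0.816, 1.72 (feb mice 1 to 3), from 25 to 106 reads per mouse. All ICH and all feb mice were above all sham mice. The absence of overlap was shared by 19.4% of all genes between ICH and sham and by 12.7% between feb and sham. The log2 fold change was 1.18 between ICH and sham (standard error 0.42, adjusted p = 0.366 in limma) and 1.01 between feb and sham (standard error 0.42, adjusted p = 0.582). For feb against ICH it was -0.17, with a 95% interval of -1.13 to 0.78.

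The calls of Mas1 depended on single mice and on the settings. Between ICH and sham, the call was lost without sham mouse 3, ICH mouse 1, or ICH mouse 2, with log2 fold changes of 1.03, 0.99, and 0.98. Between feb and sham it was lost without sham mouse 1 (1.0), sham mouse 3 (0.85), feb mouse 2 (1.14), or feb mouse 3 (0.64). A pseudocount of 1 ended both calls, with log2 fold changes of 0.59 and 0.48. Equal medians and quantile normalization ended the call between feb and sham (0.90 and 0.87), as did leaving out feb mice 1 and 3 (0.75). The filter at 1 RPKM and the replicate block ended it with the log2 fold change kept at 1.01. Equal medians moved the median of all genes tested from 0.05 to -0.06 in that contrast and from 0.08 to -0.03 between ICH and sham.

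Telencephalon genes were higher in the same mice as Mas1. Of 7 such genes, 4 were called higher between ICH and sham, 0 between feb and ICH, and 3 between feb and sham. The shares of all genes called were 2.53%, 2.43%, and 2.20%. Between feb and ICH, 1 of the 7 had an unadjusted p-value under 0.05 in limma, against 11.1% of all genes. Slc17a7, the vesicular glutamate transporter of cortical and hippocampal neurons, averaged 16.1 ± 3.67 RPKM in sham, 48.0 ± 17.0 after ICH, and 26.6 ± 6.63 with febuxostat (SD, n = 3 each). Neurod6, a transcription factor gene of the same neurons, averaged 4.17 ± 5.35 RPKM in sham, 14.5 ± 13.1 after ICH, and 17.5 ± 3.43 with febuxostat (SD, n = 3 each), with wide spread between mice. The summed RPKM of the list was 25.8 to 44.6 in sham, 64.0 to 147 in ICH, and 61.9 to 85.5 in feb mice, with no gene at 0. The long noncoding gene Airn lies across Mas1 on the other strand with 0 shared exon bases, and its RPKM was 0.721 ± 0.304 in sham, 0.628 ± 0.341 after ICH, and 0.577 ± 0.214 with febuxostat (SD, n = 3 each). The part of the telencephalon genes in the Mas1 values was not tested.

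The angiotensin II receptors were near the lower limit of the measurement. Agtr1a (chromosome 13, 30336441 to 30382867), the type 1a receptor gene, had 9, 7, 7 reads (sham mice 1 to 3), 6, 6, 16 (ICH mice 1 to 3), and 17, 10, 9 (feb mice 1 to 3). The feb mice lay above the sham mice in RPKM, at 0.158 to 0.260 against 0.101 to 0.124, an absence of overlap that 12.7% of all genes had, but in 2 feb mice the difference was of a few reads. The log2 fold change between feb and sham was 0.46 (standard error 0.31, adjusted p = 0.688 in limma). Agtr1b, the type 1b receptor gene, had between 0 and 4 reads. The coding bases of both genes are 90.8% identical in GENCODE M21, so reads of the more abundant copy could in part have been given to the other or left out.

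Agtr2 (chromosome X, 21484544 to 21489164), the type 2 receptor gene, had 24, 10, 8 reads (sham mice 1 to 3), 5, 4, 3 (ICH mice 1 to 3), and 8, 17, 7 (feb mice 1 to 3). It reached the filter of 0.1 RPKM in sham mice 1 and 2 and feb mouse 2 alone, and in no ICH mouse. The filter thus passed it through the groups where it was high, and its values are given as a description. Every ICH mouse was below every sham and every feb mouse. No overlap in either direction was found in 19.4% of all genes between ICH and sham and in 17.2% between feb and ICH. The RPKM of Agtr2 was 0.148 ± 0.0844 in sham, 0.0472 ± 0.0135 after ICH, and 0.128 ± 0.0643 with febuxostat (SD, n = 3 each). The log2 difference was -0.71 for ICH against sham and 0.60 for feb against ICH, each with a standard error of 0.34, and -1.45 and 1.28 by voom, which adds no pseudocount to RPKM. The contrasts of Agtr2 and of Agt share the ICH mice, and both genes had their lowest group mean there.

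Of 18 further genes of the renin-angiotensin system, 16 were found in the table and 13 passed the filter. In limma 0 of the 13 were called in any contrast. An unadjusted p-value under 0.05 in limma was found for 1 between ICH and sham, 2 between feb and ICH, and 2 between feb and sham. The shares of all genes in these contrasts were 12.3%, 11.1%, and 8.54%. By voom it was found for 1, 3, and 3, against 13.7%, 11.1%, and 8.92% of all genes. The 3 of 13 lay above the share, but also on too few genes to read as a result. In both fits 0 of the 13 had an adjusted p-value under 0.05. The median log2 fold change of the 13 genes was 0.09 between ICH and sham and -0.21 between feb and ICH. The most abundant were the lysosomal protease genes Ctsd and Ctsa and the neurolysin gene Nln. Ctsd, which encodes cathepsin D, had an RPKM of 50.5 ± 4.90 in sham, 54.4 ± 12.9 after ICH, and 42.9 ± 3.76 with febuxostat (SD, n = 3 each). Ctsa had 12.1 ± 0.543, 12.7 ± 0.840, and 10.9 ± 0.921, and Nln had 7.12 ± 0.101, 7.94 ± 1.5, and 7.90 ± 0.805 (SD, n = 3 each). Agtrap, whose product promotes removal of the type 1 receptor from the cell surface, had 4.34 ± 0.970, 4.25 ± 0.517, and 3.29 ± 0.0579 (SD, n = 3 each). Every feb mouse was below every other mouse in Agtrap, an absence of overlap that 17.2% of all genes had between feb and ICH and 12.7% between feb and sham. Its log2 fold change between feb and ICH was -0.35 (standard error 0.16, adjusted p = 0.463 in limma).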

How the data were processed

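RNA of 9 mouse brains was analyzed, with groups taken from the sample labels. According to the labels and the paper, the authors depleted rRNA, trimmed reads with Trimmomatic 0.36, merged reads of the same UMI, aligned them to GRCm38, counted them on exons with featureCounts (Subread 1.5.1), and deposited RPKM values, from which reads were recovered (100% of values below 10000 reads came within 0.05 of a whole number). Differences were tested with limma (version 3.58.1, R 4.3.3; eBayes with a trend) on log2(RPKM + 0.1), which understates changes of low genes, over genes reaching 0.1 RPKM in 3 or more samples, with all 9 samples in the fit and no block. A test on simulated reads was run first. P-values were adjusted by Benjamini-Hochberg over all genes tested. The authors tested genes with edgeR (3.12.1), which was not used here because counts were not among the files analyzed. The members and lists were chosen with earlier results of these data known. The named genes were all members, the further pathway genes called or most abundant (with Agtr1b, Agtrap, and a gene that is not reported here), the genes most and least like Agt, and, of each marker list used, the 2 most abundant, while the overlapping genes Gm11651 and Airn were named with their values in view. P-values compare a group difference with the spread between mice within the groups, as estimated from these samples. Alternatives changed the pseudocount, filter, scaling, fit, and samples. Sequences came from GENCODE M21 and RefSeq and were handled with Biopython 1.88, Python 3.11.15, and pandas 2.3.3. Figures were drawn with matplotlib 3.10.9.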

Additional observations from a re-analysis of the deposited data

How the results depend on the processing

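For Agt, which was chosen for these differences, leaving out each mouse in turn gave a log2 difference of -1.36 to -0.73 between ICH and sham, 1.36 to 1.98 between feb and ICH, and 0.40 to 0.94 between feb and sham. Over the 20 alternatives it moved by more than the spread between mice only without feb mice 1 and 3 together, to 1.05 between feb and ICH and 0.010 between feb and sham, an alternative chosen after the data were seen. The number of other members called between ICH and sham was 1 and became 0 with a pseudocount of 1 and 2 with voom on recovered reads, which added Agtr2. Between feb and ICH it was 0 and became 1 with voom (Agtr2). Agtr2 passed the filter only through sham and feb mice, so its contrasts with the ICH group are a description and these additions are not support. Agtr2 has 16 alternatives, since the filter at 1 RPKM and leaving out sham mouse 1, sham mouse 2, or feb mouse 2 remove it. Between feb and sham the number of members called was 1 and became 0 with a pseudocount of 1, with an RPKM of at least 1, with equal medians, with quantile normalization, with the replicate block, and without feb mice 1 and 3. With single mice left out it was 0 to 1 in all 3 contrasts. The cause of these changes was not tested. Equal medians turned the split of all genes called from 423 higher and 312 lower to 296 and 443 between ICH and sham, and from 461 and 178 to 300 and 252 between feb and sham. Over all genes, leaving out sham mouse 2 raised the genes called from 735 to 1288 between ICH and sham, with adjusted calls from 7 to 112, and from 639 to 1136 between feb and sham. Leaving out feb mouse 2 gave 1016 between feb and sham. Adjusted calls with single mice left out were 0 to 112, 0 to 1, and 0 to 6 in the 3 contrasts.

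In the labels, each group has replicates 1 to 3, with nothing else that pairs them. The deviations of same-numbered mice from their group means had correlations between -0.127 and 0.0194, and in 0 of 18 comparisons did a mouse correlate best with its own number. With the number as a replicate block, the genes called over all genes went from 735 to 717, from 706 to 684, and from 639 to 615 in the 3 contrasts, and Mas1 was no longer called between feb and sham (log2 fold change 1.01). Depth limits Ren1, Agtr1a, Agtr1b, and Agtr2, none of them above 24 reads in a mouse.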
